A study of Mus musculus with 14 samples.

Results

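RNA levels of 10 genes for histone lysine demethylases, *Kdm1a*, *Kdm2b*, *Kdm3a*, *Kdm3b*, *Kdm4c*, *Kdm5a*, *Kdm5b*, *Kdm5c*, *Kdm6a* and *Kdm6b*, were followed across mouse embryonic stem (ES) cell lines that differ in their sex chromosomes. The genes were taken by name from a table of 23298 genes, and all 10 were found in it. Each line came from 1 blastocyst of a cross between the C57BL/6J and CAST/EiJ strains, and names give the mother's strain first, so that BC lines have a C57BL/6J mother and CB lines a CAST/EiJ mother. There were 3 BC XX, 3 BC XY, 2 BC XO, 3 CB XX and 3 CB XY lines, 14 in all. All were kept with leukemia inhibitory factor on inactivated embryonic fibroblasts, which were depleted before RNA was taken; the labels name no other treatment. A line is thus 1 embryo, and the XY lines of the crosses carry X chromosomes of different strains. By the labels, BC XO is the only group with a single X chromosome and no Y chromosome.

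Values are read signals per gene that the authors scaled to a common depth, and they are not divided by gene length. A line's values summed to between 28150900 and 30657800. Taking the smallest step between the values of a line as 1 read gave 11904334 to 69645408 reads a line, so that 3 reads, the least that can be told from 0, correspond to values of 1.22 to 7.37. Whole reads could not be recovered for all genes, and depth is known only on that basis. *Uty*, a Y-linked gene, had values of 2088, 1529 and 945 in BC XY lines and 1149 in CB XY 1. In CB XY 2 and CB XY 3 as labelled it had only 19.6 and 45.4, within the 12.8 to 195 of the XX lines. The BC XO lines had 15.2 and 30.6. Other Y-linked genes separated BC XX from BC XY lines less well. *Ddx3y* had 328, 486 and 1024 in BC XX and 2268, 1397 and 1115 in BC XY lines. *Eif2s3y* had 102, 173 and 317 in BC XX and 255, 195 and 40.8 in BC XY lines, so these groups overlapped. Averaged on the log2 scale with *Uty* and *Kdm5d*, these genes gave 6.67 to 8.25 in BC XX and 7.25 to 8.82 in BC XY lines. The source of this RNA in BC XX lines was not tested. The median X-linked gene deviated from its mean over the 14 lines by -0.46 and -0.16 (log2) in CB XY 2 and CB XY 3. It deviated by 0.28 to 0.48 in XX lines and by -0.24 and -0.26 in BC XO lines. Whether the labels of CB XY 2 and CB XY 3, these 2 lines, hold was not tested. Comparisons that use these 2 lines are also given without them where the result changes. The ES cell label was checked on 14 ES cell markers. Their mean log2 level was 12.50 to 12.79 in the BC XX lines and 12.83 to 13.41 in the other 11 lines. The mean log2 level of 29 fibroblast markers was 10.6, 11.3 and 11.8 in the BC XX lines and 8.27 to 10.03 in the other 11 lines, and with more signal of such RNA, fewer ES cells and less RNA per ES cell cannot be told apart.

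Histone lysine demethylases take methyl groups off lysines of histone tails and so work against the methyltransferases that place them. *Kdm6a* and *Kdm6b* encode the enzymes that clear the repressive mark of Polycomb complexes, the *Kdm5* genes and *Kdm1a* those that clear methyl groups from the mark of active promoters, and *Kdm3a*, *Kdm3b* and *Kdm4c* those that act on the mark of heterochromatin. The *Kdm2b* protein binds CpG islands and brings a Polycomb complex to them. *Kdm6a* and *Kdm5c* are X-linked, are known to escape X inactivation in mice, and have the Y-linked counterparts *Uty* and *Kdm5d*. XX ES cells keep both X chromosomes active.

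Because *Kdm6a* and *Kdm5c* resemble their Y-linked counterparts, their sequences were compared before levels were read from them. The coding part of each X-linked gene was aligned to a whole transcript of its Y-linked counterpart. Over the aligned bases *Kdm6a* and *Uty* were 83.55% identical (3666 bases) and *Kdm5c* and *Kdm5d* 77.43% (4600 bases). For each pair the first stretch of 60 aligned bases with the median number of differences is shown, 9 for the first pair and 11 for the second. Differing bases are in capitals, and positions are counted in the Ensembl transcript (for the X-linked genes, in its coding part). Other stretches of this length had as few as 0 differences in the first pair and 3 in the second.
Kdm6a, bases 59 to 118: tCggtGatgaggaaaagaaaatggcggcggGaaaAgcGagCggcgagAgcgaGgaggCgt
Uty, bases 204 to 263: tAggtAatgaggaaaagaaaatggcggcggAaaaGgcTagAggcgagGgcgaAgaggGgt
Kdm5c, bases 13 to 72: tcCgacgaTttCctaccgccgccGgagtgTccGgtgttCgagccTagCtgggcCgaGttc
Kdm5d, bases 191 to 250: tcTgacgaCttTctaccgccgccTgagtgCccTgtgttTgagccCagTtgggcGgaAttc
Of 5980 different 50-base words in the transcripts of *Kdm6a*, 12 (0.201%) also occur in another coding gene, which is *Uty*, and 191 (3.19%) are within 2 mismatches of a *Uty* word. For *Kdm5c*, 0 of 6810 words occur in another coding gene and 7 are within 2 mismatches of a *Kdm5d* word. The other 8 members share 0 words with another coding gene.

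The 250 bases before the transcription start of *Kdm6a* and of *Uty* are shown because *Kdm6a* was the member called in both crosses and *Uty* is added to it below. They come from RefSeq (GRCm38.p6), 5′ to 3′ on the strand of the gene, at chrX:18162325-18162574 on the plus strand and chrY:1245760-1246009 on the minus strand. The search covered both strands for CCGGAAG (ETS), GGGCGG (SP/KLF), CACGTG (E-box), TGACGTCA (CRE), AAGATGGCG (YY1), GCGCATGCG (NRF1) and TACGTG (hypoxia response element), and capitals mark the matches. In the forms searched, the E-box and the hypoxia element share the letters ACGTG but differ in the first letter. With these letters 1 place cannot match both on the same strand. Other forms of the hypoxia element were not searched.
Kdm6a: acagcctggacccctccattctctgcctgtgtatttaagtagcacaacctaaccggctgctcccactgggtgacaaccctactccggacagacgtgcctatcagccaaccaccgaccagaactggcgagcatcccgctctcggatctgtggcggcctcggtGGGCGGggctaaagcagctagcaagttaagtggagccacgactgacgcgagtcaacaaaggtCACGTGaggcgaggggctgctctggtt
Uty: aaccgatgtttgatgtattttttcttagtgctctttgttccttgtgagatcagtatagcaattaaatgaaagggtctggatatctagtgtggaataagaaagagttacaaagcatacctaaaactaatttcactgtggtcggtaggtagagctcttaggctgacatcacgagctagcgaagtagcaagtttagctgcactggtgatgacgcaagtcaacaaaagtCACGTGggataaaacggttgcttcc
An E-box begins 27 bases before the start of *Kdm6a* and 25 bases before that of *Uty*, and 6.02% of 32851 promoters hold one in this window. *Kdm6a* also has GGGCGG 89 bases before its start, a match found in 32.7% of promoters. A match of letters is a description of the sequence and says nothing of binding. Upstream sequence was at hand for 7 of the 10 members, and not for *Kdm3b*, *Kdm5a* and *Kdm6b*.

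Per kb of exon, *Kdm5b* had the highest level and *Kdm6b* the lowest. The median signal per kb over the 14 lines was 3215 for *Kdm5b*, 2120 for *Kdm3a* and 1647 for *Kdm1a*, followed by 977 for *Kdm5c*, 755 for *Kdm4c* and 607 for *Kdm3b*. The lowest medians per kb were 492 for *Kdm6a*, 462 for *Kdm5a*, 426 for *Kdm2b* and 66.0 for *Kdm6b*. *Kdm6b* was below *Kdm2b* in all 14 lines with ranges that do not meet, whereas the ranges of all other neighbours in this order overlapped. *Kdm5b* exceeded *Kdm3a* in 14 of 14 lines, *Kdm3b* exceeded *Kdm6a* in 8 and *Kdm5a* exceeded *Kdm2b* in 9. Among all genes tested, the per kb level of *Kdm5b* stood at percentile 96.8 and that of *Kdm6b* at percentile 41.0.

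**Figure D1:**
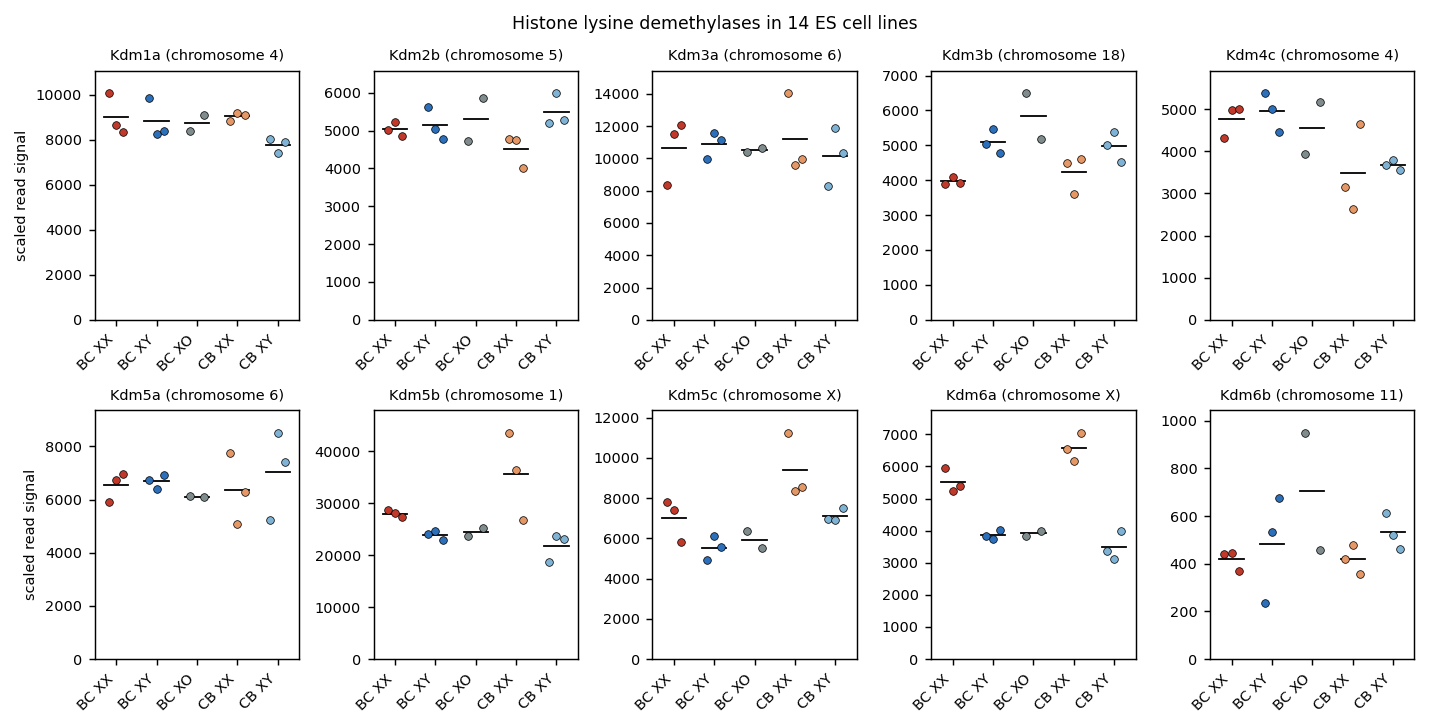
Scaled read signal (y axis, not per length) of the 10 demethylase genes in the 14 lines, with 1 point per line, groups on the x axis and a bar at the group mean. *Kdm6a* shows XX lines at 5235 to 7053 above all XY and XO lines at 3107 to 4025, while most other panels overlap.

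The first question was which of these genes differ between XX and XY lines. Fold changes were fitted with limma on log2(value + 5), a scale that understates the change of low genes, and a gene is called when its Benjamini-Hochberg adjusted p over all genes tested is under 0.05. Positive values are higher in the group named first. Over 6 XX and 6 XY lines, 1 of the 10 members was called, *Kdm6a*, which was higher in XX lines, against 5.21% of all 15311 genes tested. The median log2 fold change was -0.02 over the members, 5 of which lay above 0, and -0.03 over all genes. Within the BC cross 1 member was called (*Kdm6a*, all genes 5.7%) and within the CB cross 2 (*Kdm6a* and *Kdm5b*, both higher in XX lines, all genes 3.57%). At an unadjusted p under 0.05 there were 4 members in XX against XY lines (23.1% of all genes), 2 in BC lines (23.1% of all genes) and 4 in CB lines (18.6% of all genes).

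**Figure D2:**
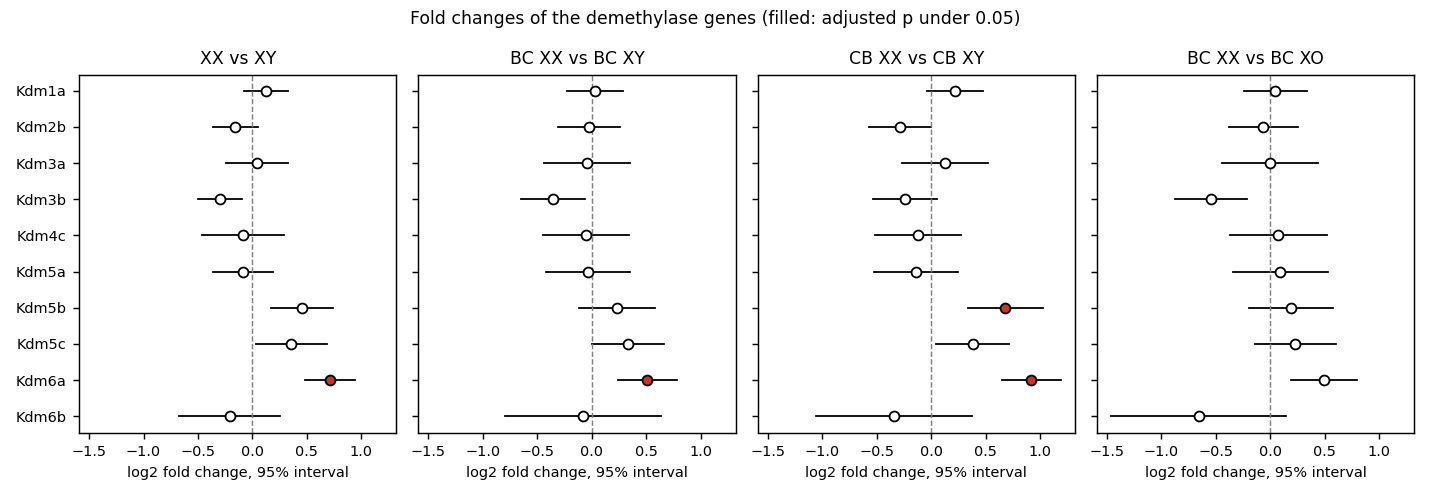
Log2 fold change (x axis) of each demethylase gene in 4 comparisons, with the 95% interval as a line and a filled point where the adjusted p was under 0.05. *Kdm6a* was called in the first 3 panels and *Kdm5b* in CB lines only, and no gene was called between BC XX and BC XO lines.

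*Kdm6a*, which encodes an eraser of the Polycomb mark and a subunit of enhancer methyltransferase complexes, lies at chrX:17739701-17857062 on the plus strand (NCBIM37). Its values were 5944, 5235 and 5379 in BC XX lines and 6528, 6167 and 7053 in CB XX lines. The BC XY lines had 3846, 3749 and 4025, the CB XY lines 3369, 3107 and 4003 and the BC XO lines 3833 and 3995. Every XX line thus lay above every XY and XO line, where XX and XY lines do not overlap for 3.52% of all genes, and XY and XO lines overlapped.

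The log2 fold change of *Kdm6a* between XX and XY lines was 0.71 ± 0.11 (SE; 1.64-fold; adjusted p = 0.00217, limma). It was 0.51 ± 0.13 in BC lines (adjusted p = 0.0321) and 0.92 ± 0.13 in CB lines (adjusted p = 0.00307). The difference between the crosses was -0.41 ± 0.18 and was not called (interaction, limma, adjusted p = 0.505). In that test 0 of 10 members were called (all genes 0.0738%) and 1 had an unadjusted p under 0.05 (all genes 9.05%). With CB XY 2 and CB XY 3 left out, the XX to XY value was 0.69 (adjusted p = 0.0132).

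In BC lines the *Kdm6a* call did not hold when any 1 of the 6 lines was left out (adjusted p 0.0538 to 0.12), while the value stayed at 0.45 to 0.55. With the mean level of the fibroblast markers as a covariate its BC value was 0.44 (adjusted p = 0.6), in a fit that called 8 genes in all. Of the 29 fibroblast markers, 20 were called higher in BC XX than in BC XY lines, and their summed signal was 197696 to 429751 against 67059 to 94200. Their part in the *Kdm6a* value was not tested beyond this covariate. In CB lines 0 of these markers were called, and *Kdm6a* was called there in each of the 6 fits without 1 line.

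BC XX lines exceeded BC XO lines in *Kdm6a* by 0.49 ± 0.14 on the log2 scale, with an interval of 0.19 to 0.80, which did not pass the threshold (adjusted p = 0.0593). BC XO and BC XY lines differed by 0.02 ± 0.14, with an interval from -0.29 to 0.32. A line with 1 X chromosome thus had *Kdm6a* values in the same range whether or not it carried a Y chromosome.

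The size of the *Kdm6a* difference was set beside that of all X-linked genes. Of 565 X-linked genes tested between XX and XY lines, 226 were called higher and 1 lower, with a median log2 fold change of 0.65 and quartiles of 0.36 and 0.87. *Kdm6a* stood at percentile 59.8 of these genes, *Kdm5c* at 25.1 and *Phf8*, an X-linked demethylase gene outside the 10, at 37.7. In BC lines the median of X-linked genes was 0.54 and in CB lines 0.73, where *Kdm6a* stood at percentiles 46.8 and 68.9. Relative to the median of the X chromosome in each line, *Kdm6a* differed by 0.07 between XX and XY lines and was not called (adjusted p = 0.698). This rescaling reversed the sign in BC lines (-0.061, adjusted p = 0.782) and left 0.20 in CB lines (adjusted p = 0.357). The reads of CB XY lines come from a CAST/EiJ X chromosome and were aligned to a C57BL/6J reference, and what this does to X-linked values was not tested.

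**Figure D3:**
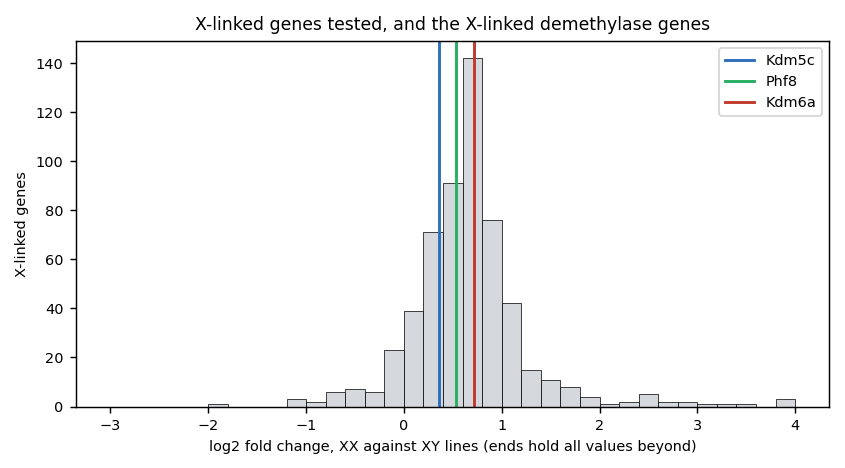
Number of X-linked genes (y axis) by log2 fold change between XX and XY lines (x axis), with vertical lines at *Kdm5c* (0.36), *Phf8* (0.53) and *Kdm6a* (0.71). *Kdm6a* lies just above the median of 0.65 and *Kdm5c* near the lower quartile of 0.36.

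*Uty*, the Y-linked counterpart of *Kdm6a* with little demethylase activity of its own, lies at chrY:433304-582202 on the minus strand. It supplied 36.6%, 30.2% and 19.9% of the summed signal per kb of the pair in BC XY 1, BC XY 2 and BC XY 3, and 26.6% in CB XY 1. In the XX lines its share was 0.208% to 3.71%. The summed level of *Kdm6a* and *Uty* was 692 ± 42.4 per kb (SD, n = 3) in BC XX lines and 673 ± 64.5 in BC XY lines, so that the ranges of the BC XX and BC XY sums overlapped. In CB lines the sums were 812 ± 55.8 and 481 ± 90.6, and the 2 BC XO lines had 472 and 494. XO lines had neither the *Kdm6a* level of XX lines nor the *Uty* level of BC XY lines.

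The sum of *Kdm6a* and *Uty* was 1.33-fold higher in the 6 XX than in the 6 XY lines (log2 difference 0.41, two-sided exact permutation test p = 0.0173, 0.0346 after Benjamini-Hochberg adjustment over 2 sums). With CB XY 2 and CB XY 3 left out, which lack *Uty* signal above that of XX lines, it was 1.17-fold (0.22, exact permutation p = 0.0762, with 0.00952 the smallest p possible). Of the 12 tests without 1 line, 0 had an unadjusted p above 0.05 (up to 0.0346) and 5 had an adjusted p above it (up to 0.0693). These 2 lines were left out for their low *Uty*, which is part of the sum, and had the lowest sums of the XY lines, 383 and 497 per kb. A smaller difference without them was therefore set by the choice of lines. The difference did not pass the threshold with 6 XX lines and the 4 XY lines that had *Uty* signal above that of XX lines. Of these XY lines only CB XY 1 is from the CB cross. Its sum was 562 per kb, below the 762 to 872 of the CB XX lines, so the overlap of sums was seen in BC lines only. Between BC XX and BC XY lines 20 of 29 fibroblast markers were called higher in BC XX lines, and 0 were called in CB lines. The sums were not adjusted for fibroblast RNA, and its part in the overlap was not tested.

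**Figure D4:**
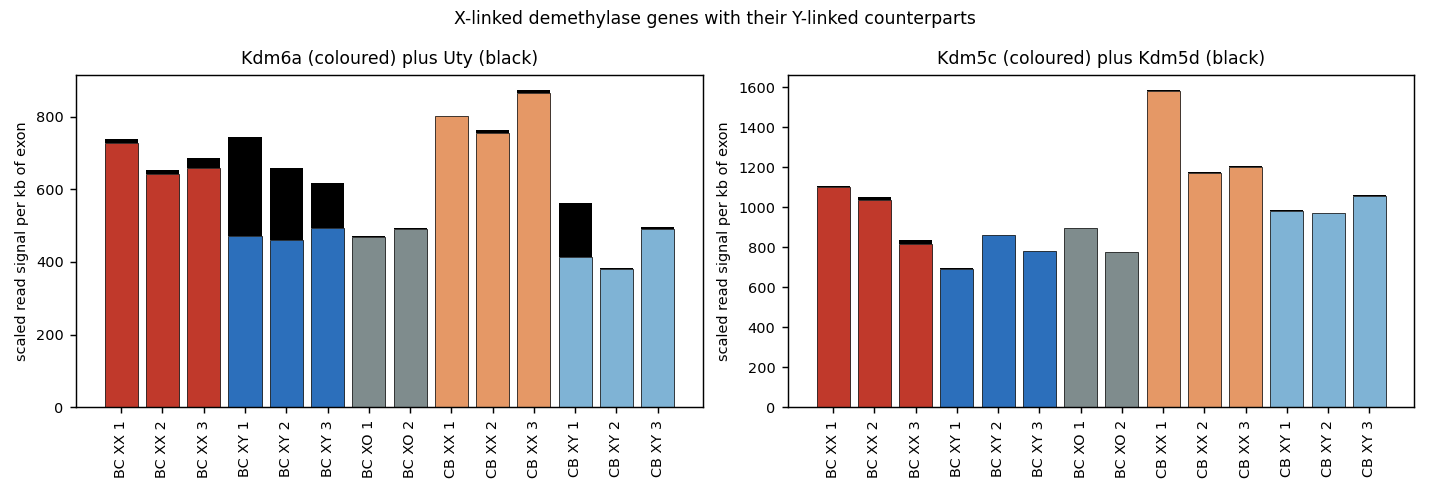
Scaled read signal per kb of exon (y axis) in each line (x axis) for *Kdm6a* with *Uty* stacked on it in black, and for *Kdm5c* with *Kdm5d*. Black segments are large in the 3 BC XY lines and CB XY 1 for *Uty*, and *Kdm5d* never exceeds 22.4 per kb.

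*Kdm6b* encodes the other eraser of the Polycomb mark, is autosomal (chr11:69212010-69227177, minus strand), and was the lowest and most variable member. Its values were 440, 444 and 371 in BC XX, 237, 534 and 675 in BC XY, and 951 and 457 in BC XO lines. CB XX lines had 421, 480 and 358 and CB XY lines 614, 521 and 461. XY lines reached both below and above the range of the XX lines.

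The SD of *Kdm6b* within groups was 0.47 on the log2 scale, at percentile 78.1 of 16261 genes, whose median SD was 0.32. The log2 fold change between XX and XY lines was -0.21 with an interval from -0.67 to 0.25 (adjusted p = 0.589). Of the erasers of the Polycomb mark, only *Kdm6a* was called.

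Among the erasers of the active promoter mark, *Kdm5b* (chr1:136456748-136529454, plus strand) had the highest signal. It had 28574.5, 27999 and 27341 in BC XX lines, 43548, 36261 and 26753 in CB XX lines, and 23696 and 25258 in BC XO lines. BC XY lines had 24055, 24632 and 22831, and CB XY lines 18570, 23755 and 23138. All 6 XX lines exceeded all 6 XY lines, as was so, higher or lower, for the share of all genes given for *Kdm6a*, but the lowest XX line (26753) was near the highest XY line (24632).

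*Kdm5b* was called in CB lines, at 0.68 ± 0.16 (1.61-fold, adjusted p = 0.0325), and was not called in BC lines (0.23 ± 0.16, interval -0.11 to 0.58, adjusted p = 0.421). With the fibroblast level as a covariate the BC value was 0.54 (adjusted p = 0.584). The difference between the crosses was -0.45 ± 0.23 and was not called (adjusted p = 0.596). Over all 12 lines the value was 0.46 ± 0.13 (adjusted p = 0.0621), and it passed with the cross as a covariate (adjusted p = 0.0408) or with the fibroblast level as one (0.68, adjusted p = 0.0252). The CB call was lost without CB XX 1, CB XX 2, CB XY 1, CB XY 2 or CB XY 3 (values of 0.52 to 0.75, adjusted p 0.0612 to 0.139), and without CB XX 3 it was 0.87 (adjusted p = 0.00716). It was also lost without CB XY 2 and CB XY 3 together (0.91, adjusted p = 0.108).

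The median of chromosome 1 genes moved with *Kdm5b* in part. In CB XX 1, the line with the highest *Kdm5b*, the median of 942 chromosome 1 genes was 0.30 above their mean over the lines on the log2 scale, and in the 3 CB XY lines it was 0.08 to 0.13 below. CB XX 2 had *Kdm5b* 0.46 above its mean with a chromosome median near 0. Relative to the chromosome median *Kdm5b* was no longer called in CB lines (0.48, adjusted p = 0.0968), and what raised chromosome 1 in CB XX 1 was not tested.

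**Figure D5:**
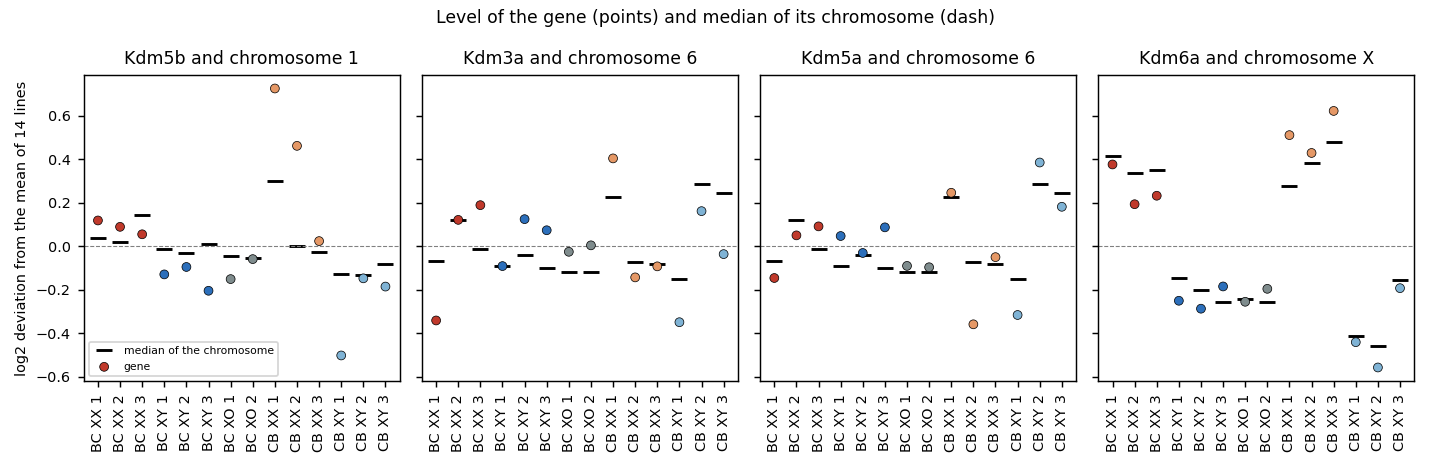
Log2 deviation from the mean of 14 lines (y axis) for *Kdm5b*, *Kdm3a*, *Kdm5a* and *Kdm6a* (points) and for the median gene of their chromosome (dashes), by line (x axis). Dashes are raised for chromosome 1 in CB XX 1 (0.30), for chromosome 6 in CB XX 1, CB XY 2 and CB XY 3 (0.23 to 0.28), and for the X chromosome in all 6 XX lines.

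*Kdm5c*, the X-linked member of the same subfamily (chrX:148667563-148709078, plus strand), had 7820, 7388 and 5800 in BC XX lines and 11260, 8344 and 8546.5 in CB XX lines. BC XY lines had 4916, 6122 and 5568, CB XY lines 6978, 6916 and 7512, and BC XO lines 6373 and 5508. XX and XY lines overlapped across the crosses but not within the CB cross, where 23.2% of all genes do not overlap.

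The XX to XY value of *Kdm5c* was 0.36 ± 0.15 (adjusted p = 0.177), with 0.33 in BC and 0.38 in CB lines, none of them called. Its interval, 0.03 to 0.68, reached the X-linked median of 0.65. *Kdm5c* also differed between crosses with the same sex chromosomes, by 0.42 ± 0.16 in XX lines (adjusted p = 0.108) and 0.37 ± 0.16 in XY lines (adjusted p = 0.219), again without passing. With the cross as a covariate the XX to XY value had an adjusted p of 0.051. Relative to the median of the X chromosome its sign turned, to -0.29 (adjusted p = 0.346). With the fibroblast level as a covariate it was 0.60 (adjusted p = 0.0767) over both crosses and 0.74 (adjusted p = 0.332) in BC lines.

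*Kdm5d*, the Y-linked counterpart of *Kdm5c* (chrY:234231-280254, plus strand), was low in every line, at 6.02 to 28.7 in BC XY lines. It was higher in BC XX lines, which have no Y chromosome by their labels, at 36.9, 62.3 and 123 (2.13 ± 0.56 on the log2 scale, adjusted p = 0.0407). The mean log2 level of the fibroblast markers in the same lines was 10.6, 11.3 and 11.8, and *Uty* was 66.1, 89.6 and 195. The part of fibroblast RNA in these Y-linked values was not tested. *Kdm5d* supplied at most 2.67% of the sum of the pair, which was 1.29-fold higher in XX than in XY lines (0.37, two-sided exact permutation test p = 0.039, adjusted over 2 sums 0.039). That p rose above 0.05 in 8 of the 12 tests without 1 line, up to 0.0779. Without CB XY 2 and CB XY 3 the difference was 0.47 (exact permutation p = 0.0286, adjusted over 2 sums 0.0571).

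*Kdm5a* (chr6:120314117-120394592, plus strand), the remaining member of this subfamily, had 5891, 6751 and 6948 in BC XX and 6737, 6382 and 6926 in BC XY lines. CB XX lines had 7735, 5081 and 6297, CB XY lines 5235, 8520 and 7396, and BC XO lines 6124 and 6097. It was lower in CB XX 2 and CB XY 1 than in any other line, and highest in CB XY 2. The median of 804 chromosome 6 genes was 0.23, 0.28 and 0.24 above its mean in CB XX 1, CB XY 2 and CB XY 3, and at most 0.12 above in the other 11 lines. *Kdm5a* held its 3 highest values among CB lines in these 3 lines. Its XX to XY value was -0.09 ± 0.13 (adjusted p = 0.721).

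*Kdm1a* (chr4:136106455-136158638, minus strand), which works with the corepressor *Rcor1* and histone deacetylases, was the steadiest member. Its values were 10066, 8668 and 8355 in BC XX, 9849, 8261 and 8377 in BC XY, and 8392 and 9097 in BC XO lines. CB XX lines had 8852, 9180 and 9102 and CB XY lines 8044, 7390 and 7899. The CB groups did not overlap, as was so for 23.2% of all genes tested, and the BC groups did.

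The SD of *Kdm1a* within groups was 0.10 on the log2 scale, at percentile 1.41 of all genes. The XX to XY value was 0.13 ± 0.09 (interval -0.07 to 0.32, adjusted p = 0.443), and in CB lines 0.22 ± 0.12 (adjusted p = 0.356).

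*Kdm3b* (chr18:34936662-34999024, plus strand), which clears the heterochromatin mark, was the member with the lowest XX to XY value. It had 3892, 4097 and 3915 in BC XX lines, 5025, 5470 and 4776 in BC XY lines and 6490.5 and 5169.5 in BC XO lines. CB XX lines had 4501, 3601 and 4594 and CB XY lines 5002, 5393 and 4530. The BC XX lines lay below all other BC lines, and the CB groups overlapped by 1 line. Lines do not overlap for 27.1% of all genes between BC XX and BC XY and for 47.2% between BC XX and BC XO.

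*Kdm3b* differed by -0.30 ± 0.09 between XX and XY lines (adjusted p = 0.0835), by -0.36 ± 0.14 in BC lines (adjusted p = 0.143) and by -0.55 ± 0.15 between BC XX and BC XO lines (adjusted p = 0.0583). None of these passed. Relative to the chromosome median the XX to XO value passed (-0.64, limma, adjusted p = 0.0476). It was the only 1 of 10 alternatives to pass, with values of -0.64 to -0.41 and adjusted p up to 0.505. Of the 5 fits without 1 line, 0 passed. Between these groups 10 of 29 fibroblast markers were called higher in BC XX lines. With the fibroblast level as a covariate the XX to XY value was -0.21 (adjusted p = 0.463).

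*Kdm3a* (chr6:71538968-71582899, minus strand), of the same subfamily and a known target of the hypoxia response, had 8365, 11534 and 12089 in BC XX and 9952, 11561 and 11158 in BC XY lines. BC XO lines had 10417 and 10634, CB XX lines 14036, 9599 and 9943, and CB XY lines 8319, 11860 and 10340. The lines overlapped in every comparison of groups. The XX to XY value was 0.04 ± 0.13, with an interval from -0.24 to 0.33, and the highest line, CB XX 1, was among the 3 with raised chromosome 6 medians.

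*Kdm4c* (chr4:73888401-74051764, plus strand), another eraser of the heterochromatin mark, was lower in most CB lines but was not called. BC XX lines had 4320, 4975 and 5007, BC XY lines 5377, 5014 and 4469, and BC XO lines 3938 and 5182. CB XX lines had 3144, 2630 and 4654 and CB XY lines 3670, 3792 and 3566. All CB lines but CB XX 3 were below all BC lines. The CB XX and BC XX lines thus overlapped. The CB XY and BC XY lines did not, as was so for 26.8% of all genes.

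CB XX lines differed from BC XX lines in *Kdm4c* by -0.49 ± 0.18 (adjusted p = 0.111) and CB XY from BC XY lines by -0.43 ± 0.18 (adjusted p = 0.231). Without CB XX 3 the first value was -0.73 and passed (adjusted p = 0.0106). Its XX to XY value was -0.09 ± 0.17 (adjusted p = 0.796). None of these values passed over all lines.

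Genes known as targets were looked at beside these erasers, from lists chosen for their function. Of 4 genes reported downstream of *Kdm3a* and *Kdm4c* in ES cells, 3 were tested and 0 were called in any of the 8 comparisons (limma), with XX to XY values of 0.32 for *Zfp57*, 0.56 for *Tcl1* and 0.03 for *Nanog*. *Zfp57* had an unadjusted p of 0.0257 there, the only one of the 3 under 0.05. Of 16 hypoxia-responsive genes, 2 were called between XX and XY lines, against 5.21% of all genes. *Pdk1*, a kinase that restrains pyruvate oxidation, fell by 0.82 ± 0.12 on the log2 scale in XX lines (adjusted p = 0.00174), and *Ankrd37* rose by 0.79 ± 0.18 (adjusted p = 0.0252). The median of the 16 was 0.15, and *Kdm3a* itself was not called.

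*Kdm2b* (chr5:123320677-123465089, minus strand), the member that binds CpG islands, had 5027, 5226 and 4867 in BC XX and 5632, 5049 and 4767 in BC XY lines. BC XO lines had 4730 and 5866, CB XX lines 4784, 4762 and 3999, and CB XY lines 5210, 5985 and 5286. All CB XX lines lay below all CB XY lines, and the BC groups overlapped. The CB groups did not overlap for 5 of the 10 members, against 23.2% of all genes. The XX to XY value was -0.16 ± 0.10 (adjusted p = 0.347), and in CB lines -0.28 ± 0.13 (adjusted p = 0.266).

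Subunits that work with these enzymes were tested as a list of 34, of which 2 were called higher in XX than in XY lines and 0 lower, against 5.21% of all genes called, with a median of -0.02 against -0.03 over all genes. Both are X-linked. *Rbbp7*, a histone chaperone found with deacetylases, rose by 0.56 ± 0.08 (adjusted p = 0.00219) and *Zmym3*, a zinc finger protein found with *Kdm1a*, by 0.68 ± 0.14 (adjusted p = 0.0168). *Rbbp7* was also called in BC lines (0.44), in CB lines (0.67) and between BC XX and BC XO lines (0.46). *Bcor*, an X-linked partner of *Kdm2b*, had 0.42 ± 0.16 (adjusted p = 0.131), and *Bcorl1* had 0.56 ± 0.28 (adjusted p = 0.251). *Rnf2*, the Polycomb ubiquitin ligase, was called in CB lines (0.68, adjusted p = 0.0223) and was also called lower in CB XY than in BC XY lines. It had 4376, 4050 and 3746 in CB XX lines and 2254, 2567 and 2797 in CB XY lines. It lies on chromosome 1, whose median deviated by 0.30 in CB XX 1, -0.0006 in CB XX 2 and -0.026 in CB XX 3.

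Of 17 other demethylase genes and relatives, 15 were tested between XX and XY lines, 1 was called higher and 0 lower, against 5.21% of all genes called, with a median of -0.07 against -0.03 over all genes. The one called was X-linked *Phf8*, whose enzyme clears repressive marks at active promoters. *Phf8* had 1470, 1612 and 1711 in BC XX lines and 1788, 1383 and 1783 in CB XX lines. XY lines had 927, 1147 and 1131 (BC) and 1190, 1061 and 1296 (CB), and XO lines 1132 and 1235, so that all XX lines lay above all others. XX and XY lines do not overlap for 3.52% of all genes. Its log2 fold change was 0.53 ± 0.11 (adjusted p = 0.0177), with 0.58 in BC lines (adjusted p = 0.0419) and 0.48 in CB lines (adjusted p = 0.113). The next smallest adjusted p values were those of *Kdm4b* (-0.64, adjusted p = 0.0974) and *Hr* (-0.73, adjusted p = 0.148). *Hr*, the hairless gene, was called between BC XX and BC XO lines (-1.42 ± 0.35, adjusted p = 0.0399), where 4.66% of all genes were called. In that comparison 10 of 29 fibroblast markers were called higher in BC XX lines, and their part in the *Hr* value was not tested. *Jarid2*, a relative without demethylase activity, is listed at 0 in both BC XO lines and at 12517 to 21979 in the others, and was left out of the tests with 14 other genes listed at 0 in a whole group.

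Of 27 histone lysine methyltransferase genes, which place the marks, 0 were called between XX and XY lines (limma), against 5.21% of all genes, and 8 had an unadjusted p under 0.05, against 23.1% of all genes. The smallest adjusted p values were 0.0646 for *Setdb2* (0.42) and 0.0743 for *Ehmt1* (-0.40), and X-linked *Suv39h1* had 0.16 ± 0.15. Between BC XX and BC XO lines 2 of the 27 were called, against 4.66% of all genes, both lower in XX lines. They were *Wbp7* (another symbol of *Kmt2b*) at -1.08 ± 0.22 and *Dot1l* at -1.11 ± 0.27. Of the 29 fibroblast markers, 10 were called higher in BC XX than in BC XO lines. The part of fibroblast RNA in these 2 values was not tested. Of 12 genes tested from pairs with an X-linked and a Y-linked copy, 5 were called higher in XX lines, all X-linked. They were *Usp9x* at 1.03 ± 0.11, *Kdm6a* at 0.71, *Eif2s3x* at 0.69, *Zfx* at 0.66 and *Uba1* at 0.59. X-linked *Kdm5c* and *Ddx3x* of these pairs were not called. Among all X-linked genes 226 of 565 were called higher. The 12 also hold Y-linked genes, so these counts are not shares of like sets.

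The remaining comparisons called no member. Between BC XX and BC XO lines 0 of 10 were called and 2 had an unadjusted p under 0.05 (*Kdm3b* and *Kdm6a*), where 4.66% of all genes were called and 23.7% had such a p. Between BC XO and BC XY lines 0 were called and 0 had an unadjusted p under 0.05, where 0.00615% of genes were called and 1.49% had such a p. Between the crosses 0 of 10 were called in XX lines (all genes 7.15%) and in XY lines (all genes 0.64%), and *Kdm4c* and *Kdm5c* had an unadjusted p under 0.05 in both, as had 26.5% and 18.7% of all genes. These comparisons share lines with each other and with those above.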

How the data were processed

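RNA-seq was made from 14 mouse ES cell lines. Total RNA was taken after 2 fibroblast depletion steps, and stranded, rRNA-depleted libraries were sequenced as single reads of 50 bases. Libraries were prepared in batches of 6 whose lines are not named in the sources used here. The deposited values are a read signal per gene that the authors scaled to a common depth, not divided by length. The submitters' processing notes name TopHat2, Cuffdiff and mm9.

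Lines were grouped by cross and sex chromosomes as labelled. CB XX lines are numbered by column, since their columns show only the group. Each line came from its own blastocyst, so that p-values measure the spread between lines.

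The test was limma 3.58.1 (R 4.3.3, trended variance) on log2(value + 5), for genes at 10 or more in at least 6 of the 12 XX and XY lines, or in at least 2 of the 14 lines in a model of 5 groups. Benjamini-Hochberg adjustment was over all genes tested, with a threshold of 0.05. Left out were 15 genes at 0 throughout a group but at 100 or more in another line. The script was tested on simulated data. Lengths are exon lengths of the NCBIM37 annotation. Sums of X-linked and Y-linked signals per kb were compared on log2(sum + 1) with an exact permutation test.

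The 10 genes and the gene lists were chosen with earlier results of these data known. Of each list, counts were given with up to 6 genes of smallest adjusted p and any sex-linked one. Alternatives changed the scaling, pseudocount, filter, covariates, lines included and, for the sums, length. Depth could be judged only from the steps between low values, and counting error is included in the spread between lines.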

Additional observations from a re-analysis of the deposited data

Results flagged for a closer look

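*Kdm5b* in CB XY 1 stood apart from the other 5 XY lines. Its value of 18570 was below the 22831 to 24632 of the others, and the gap to the nearest line was 0.703 of the whole range, above Dixon's critical value for 6 samples. Such gaps were examined in 20 sets of lines and 1 passed, while chance passes about 1 in 20. Without CB XY 1 the CB difference of *Kdm5b* was 0.57 (adjusted p = 0.139, limma). The cause was not tested.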

How the results depend on the processing

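Of 1390 values of single members under alternatives, 1363 stayed on their side of the threshold, 20 lost a call, 6 gained one and 1 called value reversed. In 99 of them, uncalled but for the reversed one, the sign changed. Relative to the chromosome median, *Kdm6a* in BC lines reversed to -0.061, and members called numbered 0 in XX against XY, 0 in BC, 0 in CB and 1 between BC XX and BC XO lines. With the fibroblast level as a covariate 2 members were called in XX against XY and 0 in BC lines. With the cross as a covariate 2 were called. With only the lines compared, 0 were called in BC and 1 in CB lines. In CB lines 1 was called with no filter on low values and 1 without CB XY 2 and CB XY 3, where the sum of *Kdm6a* and *Uty* differed by 0.22. Leaving out 1 line gave 0 members in BC in each of the 6 fits, 1 to 2 in CB and 0 to 2 between CB XX and BC XX lines (2 without CB XX 3). The sum of *Kdm5c* and *Kdm5d* then differed by 0.27 to 0.45. The share of all genes called in each of these fits is not given here. The counts therefore show which calls moved and are no result about the members as a set. The causes were not tested.

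With the number in the line names as a replicate block, 1 member was called in BC lines (*Kdm6a*, adjusted p = 0.046, limma) with 812 genes in all, and 0 members between BC XX and BC XO lines, where the genes called fell from 758 to 52. Same-numbered BC XX and BC XY lines correlated at -0.173, 0.253 and -0.056 in their deviations from the group mean. Same-numbered BC XX and BC XO lines correlated at 0.091 and 0.132, and BC XY and BC XO lines at -0.494 and 0.045. With so few lines per group these values cannot show whether same-numbered lines shared a batch. Adding the cross as a covariate with CB XY 2 and CB XY 3 left out, or relative to the chromosome median, was chosen after seeing the data. The latter called *Kdm3b* (-0.34, adjusted p = 0.0485). A planned count test on whole reads was not run, since whole reads could not be recovered.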
